A study of Mus musculus with 12 samples.

Results

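The genes described here encode 10 parts of the desmosome: the cadherins Dsg2 and Dsc2, the armadillo proteins Jup, Pkp1, Pkp2 and Pkp3, the plakins Dsp, Ppl and Evpl, and the tetraspan protein Perp. They were found by symbol among the probe sets to which the array's annotation gives a single gene. Each of the 10 had 1 probe set, and together they are 10 of the 19938 genes measured. The selection rule uses symbols and no measured values, although the 10 symbols were listed with earlier results of these data known. The cells were mouse embryonic fibroblasts (MEFs) of a cross between OG2 mice, which carry a green fluorescent reporter driven by Oct4 sequences, and 129/sv mice. In 6 cultures the cells had been infected with SKO, the reprogramming factors, taken here to be Sox2, Klf4 and Oct4, and in the other 6 they had not. Within each arm 2 cultures received blank control virus, 2 a retrovirus with microRNA cluster B and 2 a retrovirus with microRNA cluster C, and 1 of each was lysed at day 4 and 1 at day 8 after the first infection. Neither the microRNAs of a cluster nor the promoter of the viruses is named in the labels. All 12 cultures were kept in embryonic stem cell medium, and feeder cells were removed before RNA was taken.

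Each combination of SKO, virus and day was hybridised to 1 Affymetrix whole-transcript array, so no condition had a replicate. Differences are on the log2 scale of the deposited values, after robust multi-array averaging (RMA), in which 1 unit is a doubling. They were tested with limma in 1 fit over all 12 arrays, whose spread is the amount by which cluster effects differed between days and day effects between viruses. The labels do not tell of independent cultures behind each comparison, so a p-value reflects the spread between these arrays and may be technical. A gene was called at a Benjamini-Hochberg adjusted p under 0.05 over all 19938 genes. Pou5f1, which encodes Oct4, lay between 11.60 and 12 on the 6 SKO arrays and between 3.35 and 4.56 on the others, and Sox2 and Klf4 were also higher on every SKO array than on any array without SKO. A description shared by all 12 arrays names another line and day. It was not used. The titles of all 6 arrays without SKO, and of no SKO array, carry the tag Group2, a name the treatment protocol gives to that arm. The labels do not say whether the arms were handled together, so a batch shared by an arm cannot be told apart from SKO.

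Desmosomes are patches of cell adhesion that tie the intermediate filaments of neighbouring cells to one another. Desmogleins and desmocollins span the membrane and bind those of the next cell, plakoglobin and the plakophilins hold their tails, and desmoplakin links this plaque to keratin, vimentin or desmin filaments. They are abundant in epidermis, simple epithelia and heart muscle and sparse in fibroblasts, and reprogramming of fibroblasts is known to pass through a gain of epithelial features.

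With SKO, 5 of the 10 genes were higher at day 4 (Dsp, Dsc2, Pkp1, Jup and Perp) and 7 at day 8 (the same genes with Dsg2 and Pkp2). None was lower at either day. In the whole table, 9.52% were called higher and 9.4% lower at day 4. At day 8, 13.4% were called higher and 12.7% lower. Pkp3, Ppl and Evpl were not called at either day. The median log2 difference of the 10 genes was 0.46 at day 4 and 1.30 at day 8, beside -0.04 and -0.07 for all genes. For the same 5 genes that were called at both days, all 6 SKO arrays lay above all 6 arrays without SKO, and 7.48% of all genes separated in that way. Within day 4 the same count was 5 of 10, beside 15.8% of all genes, and within day 8 it was 9 of 10 (all but Pkp3), beside 20.7%.

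**Figure D1:**
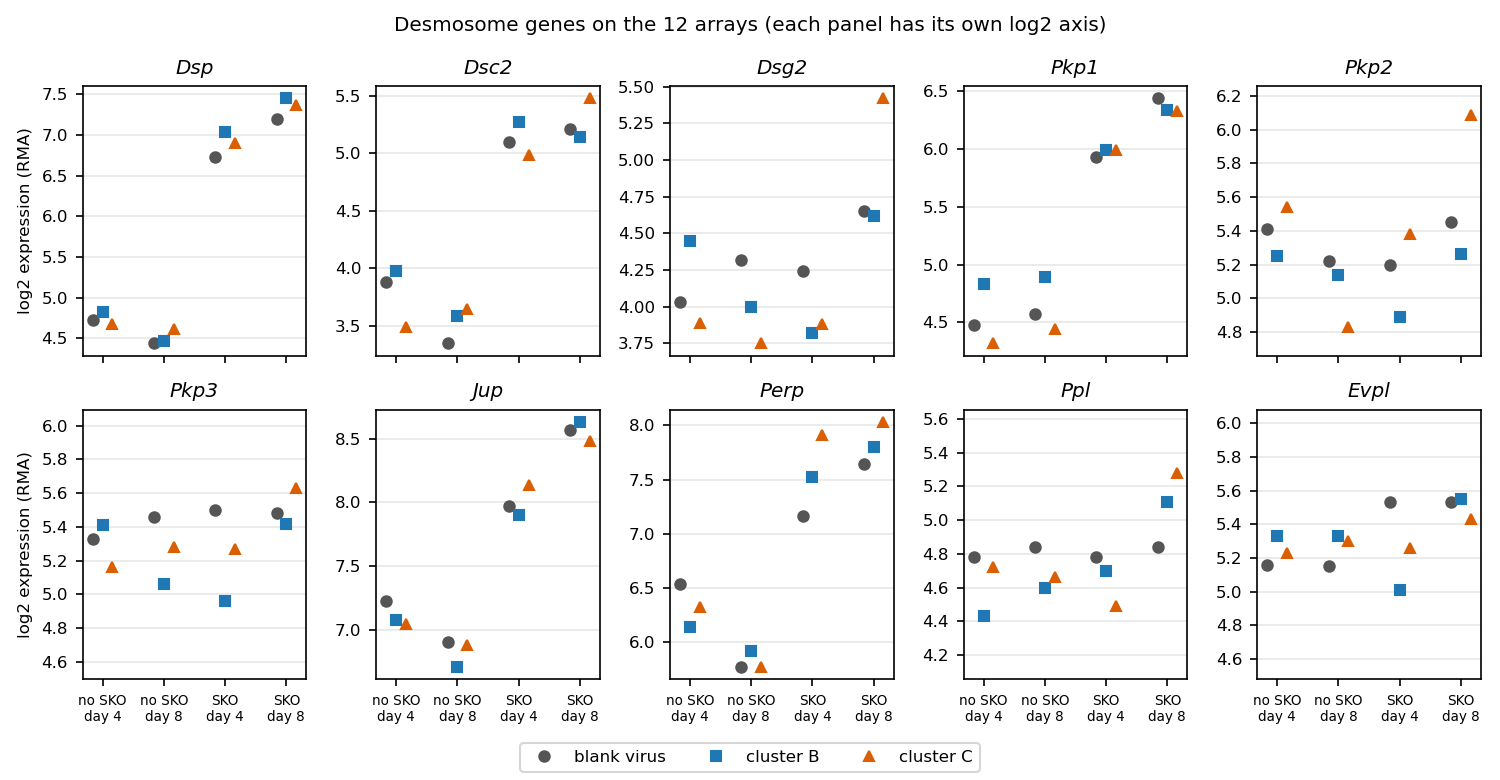
Log2 expression (y axis, with its own range in each panel) of the 10 desmosome genes in arrays without and with SKO at days 4 and 8 (x axis). Each point is 1 array, marked by virus. Dsp, Dsc2, Pkp1, Jup and Perp show SKO points above all others. Evpl does so at day 8 by a small margin, and Pkp3 overlaps at both days.

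In bulk RNA, more cells that express a gene and more of its RNA per cell cannot be told apart. In each list of 3 values below, the order is blank virus, cluster B and cluster C. Levels of different genes come from different probes and are not compared.

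Among the cadherins, Dsc2 (desmocollin 2) separated the arms and Dsg2 (desmoglein 2, the most widely expressed desmoglein) did so only in part. Dsc2 read 5.10, 5.27 and 4.99 with SKO at day 4, against 3.88, 3.98 and 3.49 without. At day 8 it read 5.21, 5.14 and 5.48 with SKO and 3.35, 3.59 and 3.65 without. The arms did not overlap at either day, and the difference was largest in the pair with blank virus at day 8, at 1.86. Its fitted log2 difference was 1.34 ± 0.16 (SE), or 2.52-fold, at day 4 (limma adjusted p = 0.000447) and 1.75 ± 0.16, or 3.36-fold, at day 8 (limma adjusted p = 5.45e-05). The values without SKO lay near the arrays' lower quartiles of 3.48 to 3.68, where array signals are compressed, so these folds may be low estimates.

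Dsg2 read 4.24, 3.82 and 3.88 with SKO at day 4, against 4.03, 4.45 and 3.89 without, so the arms overlapped. Its difference at that day was -0.14, with a 95% interval from -0.61 to 0.33. At day 8 it read 4.65, 4.62 and 5.42 with SKO, all above the 4.32, 4.00 and 3.75 without. The highest value was that of cluster C. The day 8 difference was 0.87 ± 0.21, or 1.83-fold (limma adjusted p = 0.0139). Dsg2 signals were low: all but that of the SKO array with cluster C at day 8 lay below the lowest array median of 4.98. That call was lost when single arrays of day 8 were left out: the SKO array with cluster C (0.56, adjusted p = 0.085), the array without SKO with cluster B (0.70, adjusted p = 0.0829) or the one with cluster C (0.85, adjusted p = 0.0692).

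The armadillo proteins bind the cadherin tails in the plaque. Jup (plakoglobin, which also serves in adherens junctions) read 7.97, 7.90 and 8.14 with SKO at day 4 and 7.23, 7.08 and 7.05 without. At day 8 it read 8.57, 8.63 and 8.48 with SKO and 6.91, 6.71 and 6.88 without. The SKO arrays were higher at day 8 than at day 4 for every virus, and the arrays without SKO lower. The difference between the arms was 0.89 ± 0.11, or 1.85-fold, at day 4 (limma adjusted p = 0.000574) and 1.72 ± 0.11, or 3.30-fold, at day 8 (limma adjusted p = 6.62e-06).

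Pkp1 (plakophilin 1, best known from stratified epithelia) read 5.93, 5.99 and 5.99 with SKO at day 4 and 6.44, 6.34 and 6.33 at day 8. Without SKO it read 4.48, 4.83 and 4.32 at day 4 and 4.57, 4.89 and 4.44 at day 8. Among the SKO arrays the viruses lay close together, and without SKO the cluster B arrays were the highest at both days. The difference between the arms was 1.43 ± 0.10, or 2.69-fold, at day 4 (limma adjusted p = 1.69e-05) and 1.74 ± 0.10, or 3.33-fold, at day 8 (limma adjusted p = 2.79e-06).

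Pkp2 (plakophilin 2, the plakophilin of simple epithelia and heart muscle) overlapped between the arms at day 4, with 5.2, 4.89 and 5.38 against 5.41, 5.25 and 5.54 without SKO. Each SKO array lay below its counterpart, but the difference of -0.24 had an interval from -0.57 to 0.08. At day 8 it read 5.45, 5.26 and 6.09 with SKO and 5.22, 5.14 and 4.83 without. All SKO arrays were then above the others, by 0.54 ± 0.14, or 1.45-fold (limma adjusted p = 0.0234). The call was lost without any of 4 arrays of day 8: SKO with cluster B (0.57, adjusted p = 0.0625), SKO with cluster C (0.40, adjusted p = 0.149), no SKO with blank virus (0.61, adjusted p = 0.0531) or no SKO with cluster C (0.35, adjusted p = 0.15).

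Pkp3 (plakophilin 3, found in most epithelia) lay between 4.96 and 5.63 on the SKO arrays and between 5.06 and 5.46 on the others. The arms overlapped at both days. Its difference was -0.06 at day 4 (95% interval -0.37 to 0.25) and 0.24 at day 8 (-0.07 to 0.55).

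Among the plakins, Dsp (desmoplakin, the obligate link from the plaque to intermediate filaments) had the largest difference of the 10 genes at both days. It read 6.73, 7.04 and 6.90 with SKO at day 4 and 7.19, 7.45 and 7.37 at day 8. Without SKO it read 4.73, 4.82 and 4.68 at day 4 and 4.44, 4.47 and 4.62 at day 8. Even the lowest SKO array was far above the highest array without SKO. The difference was 2.15 ± 0.10, or 4.44-fold, at day 4 (limma adjusted p = 2.53e-06) and 2.82 ± 0.10, or 7.08-fold, at day 8 (limma adjusted p = 3.6e-07).

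Ppl and Evpl (periplakin and envoplakin, partners in the cornified envelope of stratified epithelia) were not called at either day, although their SKO arrays of day 8 lay above the others by small margins. Ppl read 4.78, 4.70 and 4.49 with SKO at day 4 and 4.84, 5.11 and 5.28 at day 8, against 4.78, 4.43 and 4.72 and then 4.84, 4.6 and 4.66 without. With blank virus its SKO array differed from the one without by -0.01 at day 4 and 0.01 at day 8, and the SKO arrays with a cluster at day 8 were the highest. Its difference was 0.01 at day 4 (95% interval -0.30 to 0.32) and 0.38 at day 8 (0.06 to 0.69), which did not pass (limma adjusted p = 0.0759). It passed without the SKO array with blank virus at day 8 (0.55, adjusted p = 0.0371), without the SKO array with cluster C at day 4 (adjusted p = 0.0415) and when dim genes were left out (adjusted p = 0.0404). Evpl read 5.53, 5.01 and 5.26 with SKO at day 4 and 5.53, 5.55 and 5.43 at day 8, against 5.16, 5.33 and 5.23 and then 5.15, 5.33 and 5.30 without. The arms overlapped at day 4, and at day 8 the lowest SKO array lay just above the highest without. Its difference was 0.03 (-0.24 to 0.30) at day 4 and 0.25 (-0.03 to 0.52) at day 8.

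Perp, a tetraspan membrane protein that p53 and p63 activate and that epidermal desmosomes need, read 7.16, 7.52 and 7.91 with SKO at day 4 and 7.64, 7.80 and 8.03 at day 8. Without SKO it read 6.54, 6.14 and 6.32 at day 4 and 5.77, 5.92 and 5.77 at day 8. There was no overlap between the arms, and within the SKO arm the order at both days was blank virus, cluster B, cluster C. The difference was 1.20 ± 0.13, or 2.29-fold, at day 4 (limma adjusted p = 0.000252) and 2 ± 0.13, or 4.01-fold, at day 8 (limma adjusted p = 6.66e-06).

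**Figure D2:**
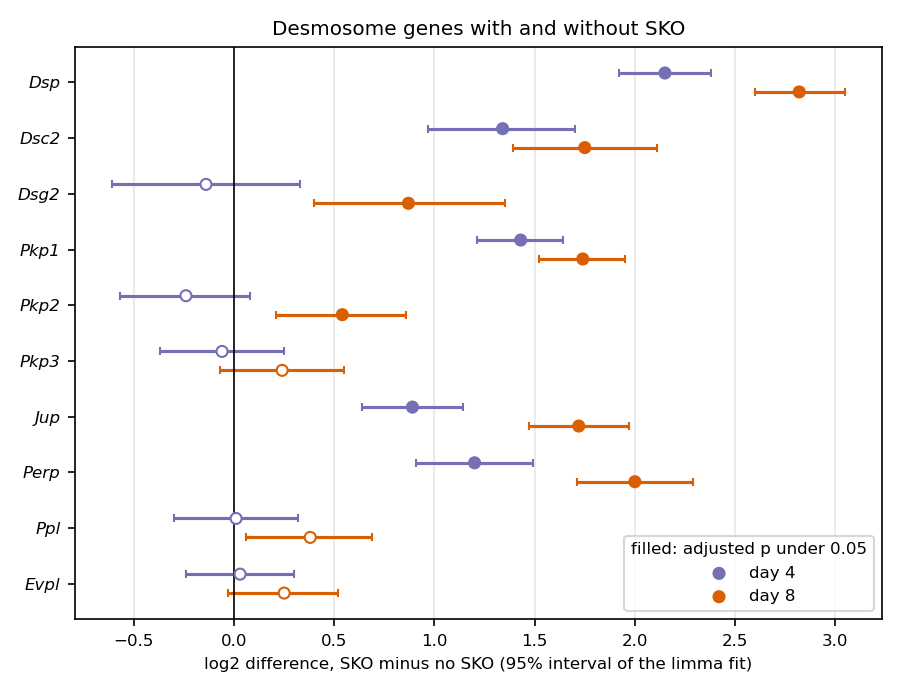
Fitted log2 difference between SKO and no SKO (x axis) for the 10 desmosome genes (y axis) at days 4 and 8, with bars for 95% intervals from limma over 12 arrays. Dsp stands highest at both days (2.15 and 2.82), and the intervals of Pkp3 and Evpl include 0 at both.

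Dsp and Jup were higher with SKO at both days, and their day changes also differed between the arms (given with the day comparison). RefSeq promoters of GRCm38.p6 were at hand for only these 2 of the 10 genes, and those sequences are shown. The choice rests on what was at hand and not on their values. Capitals mark a match to GCCNNNGGC, a motif of AP-2 factors, and each run is on the gene's own strand. The first is the 250 bases before the start of Dsp, chr13:38151044-38151293, on the plus strand. The second is 201 of the 250 bases before the start of Jup, chr11:100397840-100398040, on the minus strand. The 49 bases next to the start lie inside the annotated Jup gene and are left out.
Dsp: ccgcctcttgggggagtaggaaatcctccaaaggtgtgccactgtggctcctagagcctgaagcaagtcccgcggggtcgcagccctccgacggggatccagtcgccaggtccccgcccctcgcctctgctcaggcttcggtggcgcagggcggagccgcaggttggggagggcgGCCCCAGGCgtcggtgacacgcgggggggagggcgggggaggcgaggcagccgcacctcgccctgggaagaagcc
Jup: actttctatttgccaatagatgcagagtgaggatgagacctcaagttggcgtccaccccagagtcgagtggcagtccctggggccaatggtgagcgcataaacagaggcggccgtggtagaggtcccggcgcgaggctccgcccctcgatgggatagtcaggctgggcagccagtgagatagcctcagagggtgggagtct
The Dsp run had 72.4% G or C and 22 CpG dinucleotides and the Jup run 60.2% and 10, beside a median G or C content of 52.4% over all 32851 promoters. That median is over runs of 250 bases, so the shorter Jup run does not cover the same stretch. Both strands of the full 300-base windows were searched. CACCTG, the E-box of Snai and Zeb repressors, was in 20.2% of all promoters, GGGNGTGG (Klf4) in 17.6%, AACCGGTT (grainyhead-like) in 0.146%, GCCNNNGGC in 16.6% and ATGCAAAT (the octamer of Oct4) in 1.74%. Dsp held 1 CACCTG match, on the opposite strand and past its start, and 1 GCCNNNGGC match, which begins 75 bases before the start. Jup held none of the 5 motifs in its window. A match in letters is a description of the sequence and shows no binding.

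From day 4 to day 8 with SKO, 4 of the 10 genes rose (Dsp, Dsg2, Pkp1 and Jup), beside 5.24% of all genes, and all 10 fitted changes were above 0. Without SKO, 1 fell (Perp), beside 4.63% of all genes called lower, and 0 rose, beside 4.05% called higher. The median change was 0.41 with SKO and -0.16 without, against -0.01 and 0.01 for all genes. These day comparisons and the SKO comparisons use the same 12 arrays, and their values are given side by side.

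Dsg2 had the largest rise with SKO, 0.91 ± 0.21 or 1.89-fold (limma adjusted p = 0.028). Its 3 pairs of arrays gave changes from 0.41 to 1.54, the highest with cluster C. Jup rose by 0.55 ± 0.11, or 1.47-fold (limma adjusted p = 0.0165), Dsp by 0.44 ± 0.10, or 1.36-fold (limma adjusted p = 0.028), and Pkp1 by 0.40 ± 0.10, or 1.32-fold (limma adjusted p = 0.0338). The Dsp changes of the 3 viruses lay within 0.40 to 0.47. Pkp2 (0.45, 95% interval 0.12 to 0.77) and Ppl (0.42, 0.11 to 0.73) did not pass, with limma adjusted p of 0.0948 and 0.0996. They passed when dim genes were left out (adjusted p of 0.0447 and 0.0468). Perp (0.29), Pkp3 (0.27), Evpl (0.24) and Dsc2 (0.16) had intervals that reached 0 or below. For 5 of the 10 genes all 3 SKO arrays of day 8 lay above all 3 of day 4, as for 14.2% of all genes. These calls rest on few arrays. Of the 4, 1 remained without either SKO array with blank virus (Dsg2) and 1 without either with cluster C (Jup). None remained without either with cluster B, and 3 (all but Pkp1) without either array of cluster C without SKO. Without either SKO array with cluster C, the Dsg2 change was 0.60, which is over 1.5 times less than 0.91.

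Without SKO, Perp fell by 0.52 on the log2 scale, to 0.70 of its day 4 level (limma adjusted p = 0.0409), and its 3 pairs gave changes from -0.77 to -0.22. Jup (-0.29, 95% interval -0.54 to -0.03), Pkp2 (-0.34, -0.66 to -0.01) and Dsp (-0.23, -0.46 to 0) also had 3 of 3 pairs below 0 and did not pass. In 4 of the 10 genes the 3 arrays of day 8 lay below the 3 of day 4, as in 15.8% of all genes. The Perp call was lost without any array of blank virus in either arm, any SKO array with cluster B or any array without SKO with cluster C.

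The day changes of the arms were compared directly in the same fit. For Jup, the change with SKO exceeded that without by 0.84 ± 0.16 (limma adjusted p = 0.027), and for Dsp by 0.67 ± 0.14 (limma adjusted p = 0.0428). These 2 of 10 genes stand beside 1.97% of all genes called in that direction. Perp (0.81, limma adjusted p = 0.0528), Pkp2 (0.78, 0.0839) and Dsg2 (1.01, 0.115) did not pass, and neither did Pkp1 (0.31, 0.278), whose level rose with SKO. The median of the 10 was 0.54, beside -0.02 for all genes. Leaving out any 1 of the 12 arrays left 0 or 1 of the genes called: Jup without either SKO array with cluster C, Perp without either array of cluster B without SKO, and none otherwise.

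**Figure D3:**
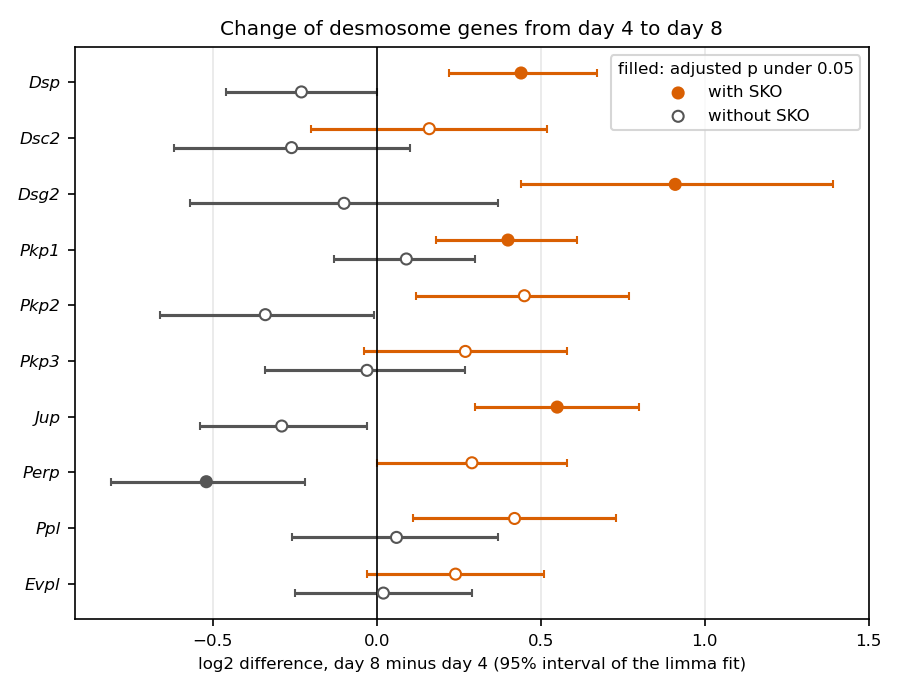
Fitted log2 change from day 4 to day 8 (x axis) of the 10 desmosome genes (y axis) in the arms with and without SKO, with bars for 95% intervals from limma over 12 arrays. With SKO all 10 points lie above 0, and without SKO Perp lies lowest, at -0.52.

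The microRNA clusters were compared with blank virus and with each other within each arm. Both clusters share the blank virus arrays. No desmosome gene was called for either cluster. With SKO, limma called 0 of 10 for cluster C against blank virus, beside 0.0201% of all genes, and 2 of the 10 had an unadjusted p under 0.05, beside 6.82%. For cluster B it called 0, beside 0.01%, and 1 had an unadjusted p under 0.05, beside 3.08%. For cluster C against cluster B it called 0, beside 0.0201%, and 1 had an unadjusted p under 0.05, beside 5.53%. Without SKO it called 0 of all genes for cluster C against blank virus, cluster B against blank virus and cluster C against cluster B. At an unadjusted p under 0.05 there were 0, 1 and 1 of the 10, beside 4.72%, 5.86% and 6.32% of all genes. The effect of a cluster with SKO against that without was called for 0 genes of the whole table. At an unadjusted p under 0.05 there was 1 of the 10 for cluster C, beside 5.79%, and 0 for cluster B, beside 5.2%.

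Perp had the largest difference between cluster C and blank virus with SKO, 0.57 ± 0.16 (95% interval 0.21 to 0.92; limma adjusted p = 0.641). Pkp2 followed at 0.41 (0.01 to 0.81; limma adjusted p = 0.724), and between cluster C and cluster B it differed by 0.66 ± 0.18 (0.26 to 1.05; limma adjusted p = 0.841). For Dsp, cluster B exceeded blank virus by 0.28 (0 to 0.56), and for Pkp1 without SKO it did so by 0.34 (0.07 to 0.60). The intervals of Dsp, Dsc2, Pkp1 and Jup for cluster C with SKO all included 0, with bounds from -0.36 to 0.52. A day-specific fit for cluster C with SKO gave Dsg2 0.67 (0.09 to 1.25) and Pkp2 0.61 (0.10 to 1.12) at day 8, both with limma adjusted p of 0.697, and Perp 0.70 (0.22 to 1.18) at day 4 (limma adjusted p = 0.653). It called 0 of the 10 genes at either day, and 0% and 0.0903% of all genes were called. At an unadjusted p under 0.05 there were 1 of the 10 at day 4, beside 6.61% of all genes, and 2 at day 8, beside 6.88%.

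The SKO array with cluster C at day 8 was looked at alone because it stood apart in earlier results of these data. It was the highest of the 12 for 6 of the 10 genes, Dsc2, Dsg2, Pkp2, Pkp3, Perp and Ppl, beside 8.23% of all genes. The count describes 1 array chosen in that way. Single-array differences from blank virus there were 0.77 for Dsg2, 0.64 for Pkp2, 0.43 for Ppl, 0.39 for Perp, 0.27 for Dsc2 and 0.14 for Pkp3. Of the other 4 genes, Dsp differed by 0.18, Pkp1 by -0.11, and Jup and Evpl by -0.10 each. The same array had the highest mean of 8 pluripotency markers (6.72, against 4.96 with blank virus and 5.22 with cluster B) and of 8 markers of simple epithelium (7.24, against 6.46 and 6.74). Sox2 was also highest on it, at 7.55. Their part in the values of the desmosome genes was not tested.

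**Figure D4:**
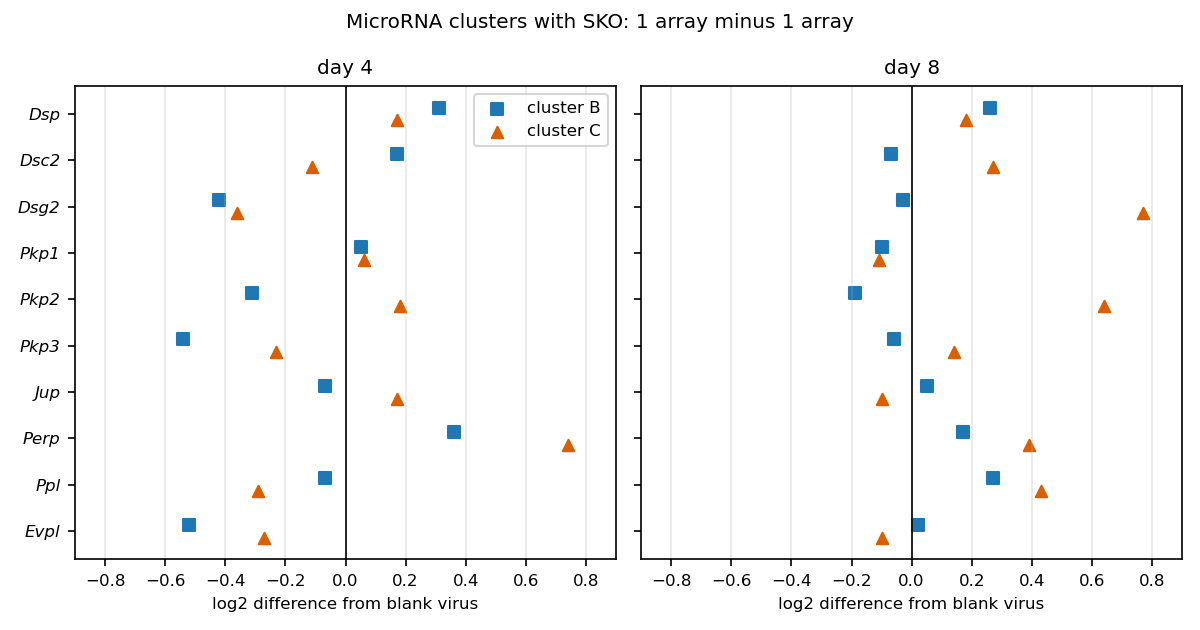
Log2 difference between cluster B or C and blank virus (x axis) in the SKO arm for the 10 desmosome genes (y axis), at day 4 and at day 8. Each point is a difference between 2 single arrays, with no error bar, and both clusters share the blank virus array. Dsg2 (0.77) and Pkp2 (0.64) with cluster C at day 8 and Perp (0.74) with cluster C at day 4 lie farthest to the right.

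The other genes of the junction were read from lists. Of 8 other measured desmosome genes, Pkp4 (a plakophilin relative found in several junctions) and Dsc3 were higher with SKO at day 4, by 1.05 ± 0.14 and 0.59 ± 0.12. At day 8 only Pkp4 passed, at 0.63 ± 0.14 (limma adjusted p = 0.00954). None was lower at either day. Dsg3, the desmoglein of basal epidermis, lay between 3.03 and 4.12 on all 12 arrays and did not pass at either day. By value at day 8, Pof1b (0.36) followed Pkp4, and Dsg4 (-0.21) and Dsg1b (-0.12) were lowest, and none of these passed. The median of these 8 genes was -0.06 at day 4 and 0.06 at day 8. Several had low signals. Pof1b lay between 2.44 and 3.37, below the arrays' lower quartiles of 3.48 to 3.68. Dsg3, Dsg4 (3.10 to 3.52) and Dsc3 (3.13 to 4.01) lay near those quartiles. Array signals are compressed there, so small differences of these genes do not show that their expression was unchanged.

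Of 18 keratins, other filament proteins and plakins, 7 were higher and 2 lower with SKO at day 4, and 13 higher and 1 lower at day 8. Krt8, Krt18 and Krt19, the keratins of simple epithelia, were higher by 2.20, 1.34 and 2.41 at day 8, when all of their adjusted p-values in limma passed. Krt14 (basal epidermis) was higher by 2.42, Krt16 by 1.24, and Krt6a, Krt17, Krt5 and Krt7 by 1.47, 1.41, 0.60 and 1.24. Krt7 was lower at day 4, by -0.70, so it changed direction between the days. The plakins Dst, Macf1, Eppk1 and Plec, which anchor filaments at other sites, were higher by 1.6, 0.96, 0.64 and 0.46 at day 8. Des, the muscle filament protein desmin, was lower at -0.98, and Krt10 did not pass at -0.07.

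Of 13 genes on the adherens junction list, 4 were higher and 4 lower at day 4 and 5 higher and 3 lower at day 8. Those higher at day 8 were Epcam (3.49), Cdh1 (E-cadherin, 2.24), Afdn (afadin, 1.24), Nectin3 (a nectin, 0.87) and Ctnna1 (alpha-catenin, 0.51). Epcam is an epithelial adhesion molecule and no cadherin, nectin or catenin. The lower ones were all classical cadherins, Cdh2 (N-cadherin, -1.23), Cdh11 (-1.41) and Cdh3 (P-cadherin, -2.11). This list thus moved in both directions. Of the 10 desmosome genes 0 were called lower, beside 9.4% of all genes at day 4 and 12.7% at day 8. That count is near those shares, so it does not set the desmosome genes apart from this list.

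**Figure D5:**
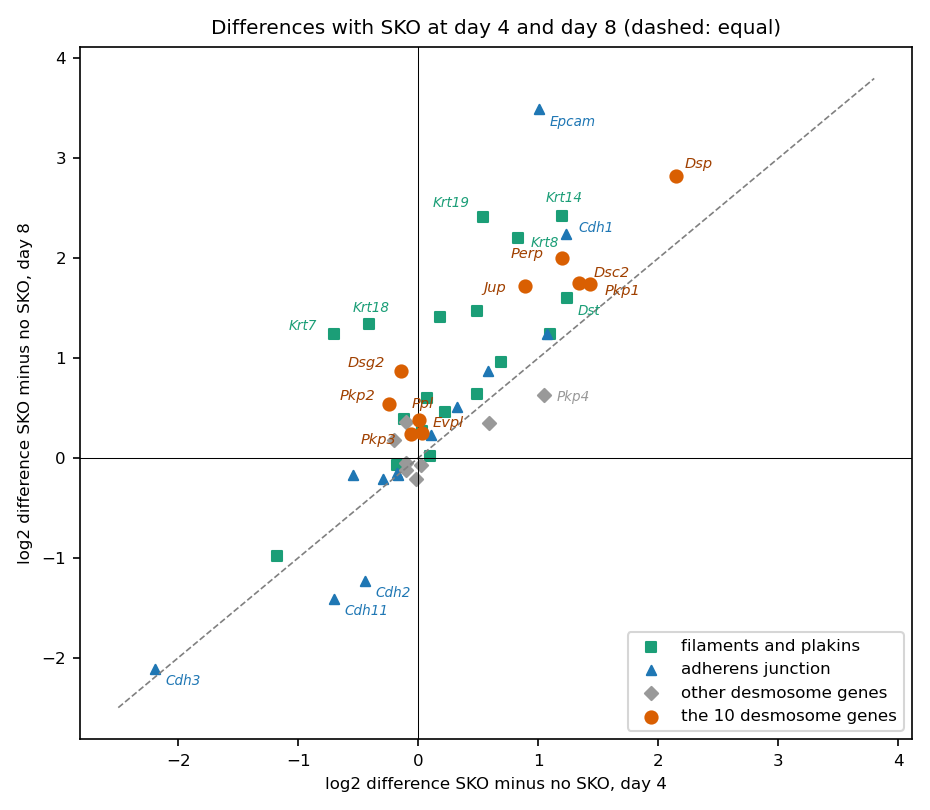
Fitted log2 difference between SKO and no SKO at day 4 (x axis) and day 8 (y axis) for the 10 desmosome genes and the genes of 3 lists. The dashed line marks equal differences. The desmosome genes lie above it, with Dsp farthest right among them, and Cdh3, Cdh11 and Cdh2 lie at the lower left.

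Of 11 genes listed as cornified envelope partners, 3 were higher and 1 lower at day 4 and 4 higher and 2 lower at day 8. The transglutaminases Tgm3 and Tgm1 were higher by 2.33 and 1.61 at day 8, Scel by 0.78 and Cnfn by 0.59. Lor (loricrin) was lower at -0.98 and S100a11 at -0.50. Ppl and Evpl themselves were not called.

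Of 11 epithelial regulators, 2 were higher and 1 lower at day 4 and 5 higher and 1 lower at day 8. Ehf, an epithelial Ets factor, was higher by 3.08, Esrp1 and Esrp2 (epithelial splicing factors) by 0.77 and 0.37, and Grhl3 and Grhl2 (grainyhead factors) by 0.62 and 0.40. Klf5 was lower at -0.42, and Ovol2 did not pass at 0.05. Of 6 mesenchymal regulators, 0 were higher at either day, and 4 were lower at day 4 and 5 at day 8: Snai2 (-1.47), Snai1 (-1.42), Twist2 (-0.61), Zeb1 (-0.51) and Zeb2 (-0.41). Twist1 did not pass at -0.24.

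Markers of other cell types were counted in the same way. The shares of all genes to set beside these counts are 9.52% higher and 9.4% lower at day 4. At day 8 they are 13.4% and 12.7%. All 8 markers of simple epithelium, 5 of which are also on the lists above, were higher at day 8, and 4 at day 4. Their mean lay between 6.46 and 7.24 on the 3 SKO arrays of day 8 and between 4.90 and 5.11 without SKO. Of 11 keratinocyte markers, most of which are also on the lists above, 3 were higher and 1 lower at each day. At day 8 the higher ones were Krt14, Krt5 and Krtdap, and the lower one was Lor (-0.98). Krtdap, a keratinocyte protein, was higher by 2.31 at day 8, while Trp63, which encodes the p63 factor of stratified epithelia, did not pass (0.23). The keratinocyte mean was 4.84 to 5.05 with SKO and 4.42 to 4.58 without at day 8. Of 10 cardiomyocyte markers 0 passed at day 4, and 1 was higher and 2 lower at day 8. Of 8 pluripotency markers 0 passed at day 4 and 4 were higher at day 8. Of 8 fibroblast markers, 1 was higher and 6 lower at day 4 and 7 were lower at day 8, and their mean was 9.43 to 9.69 with SKO and 10.83 to 10.93 without at day 8, so the arrays without SKO carried fibroblast transcripts as labelled. Of 6 leukocyte markers, 2 were lower at day 4 and 5 at day 8. The part of these cell types in the desmosome differences was not tested.

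The genes whose pattern was most like the mean of the 10 desmosome genes were ranked by Pearson's r over the 12 arrays. The 852 candidates were none of the 10, were above the median level and varied by at least 1.5 log2 units. Predicted and clone names, olfactory receptors and small RNA genes were left out. Pairs of the 5 genes called at both days had r from 0.92 to 0.98, and pairs of the other members 0.32 to 0.78. Dsp and Pkp3 had 0.28. Likeness to the mean is thus not likeness to each of the 10. The highest were Dpp4 (0.99), Cd9 (0.986), Reep1 (0.985), Itpk1 (0.985), Krt80 (0.984), Pde8b (0.984), Bcat1 (0.982) and Kdm3a (0.982). Dpp4 lay between 7.30 and 9.50 on the SKO arrays and between 3.42 and 4.41 on the others. The lowest were Mid1 (-0.995), Smtn (-0.992), Nsg1 (-0.99) and Igf2 (-0.99). All 12 arrays share the split by SKO, and the values describe these arrays and carry no test.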

How the data were processed

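Biotin-labelled cDNA from 100 ng of total RNA went onto 12 Affymetrix arrays, 1 per culture, as the labels' protocols state. Values deposited by the authors are log2 expression for 28853 probe sets and range from 0.916 to 14.034. RMA and Partek are named per the submitters' processing notes. The genome build is not given in the sources used here. RMA values carry no counts, so precision is limited by how many arrays there are. No 2 arrays were copies (smallest mean absolute difference 0.167), and array medians lay between 4.98 and 5.07.

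The platform annotation gave 1 gene to 21789 probe sets. For the 999 genes with several, the brightest on average was kept, which left 19938 genes. limma 3.58.1 in R 4.3.3 fitted 8 coefficients (SKO, day, clusters B and C, and SKO by day and by cluster), with 4 residual and 4.94 prior degrees of freedom, for 13 of the 15 comparisons, and 9 coefficients with day-specific cluster C terms for the other 2. The fit was also run on simulated data with independent noise and no day-specific cluster effects. That run cannot show how the fit handles such effects in these arrays. Alternatives were the fit, variance settings, normalization, a filter on dim genes, probe set choice, a required fold of 1.5, and the omission of each array in turn. The 10 genes, all lists and the separate look at the SKO array with cluster C at day 8 were chosen with earlier results of these data known. The text names all 10 genes, the genes called with SKO at day 8 and the extremes in the 6 lists on other desmosome, filament, adherens junction, cornified envelope, epithelial and mesenchymal genes, and the 8 highest and 4 lowest genes by likeness. Lists of cell type markers are given by counts and means. Krtdap, Trp63, Dsg3 and Dsc3 were picked after their values were seen, and Pou5f1, Sox2 and Klf4 are named as a check of the labels. Promoters are RefSeq sequences. Tables and figures were made with Python 3.11.15, pandas 2.3.3 and matplotlib 3.10.9.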

Additional observations from a re-analysis of the deposited data

Results flagged for a closer look

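The change from day 4 to day 8 differed between the arms in limma's interaction test for 2 of the 10 desmosome genes. For Dsp, the change with SKO exceeded that without by 0.67 (SE 0.14, limma adjusted p = 0.0428), with 3 of 3 pairs above 0 with SKO and 3 of 3 below 0 without. For Jup it did so by 0.84 (SE 0.16, limma adjusted p = 0.027), with the same counts of pairs. The pairs come from the arrays of the fit and are no separate support. Of all genes, 1.97% were called in that direction. With any 1 array left out, Dsp was not called, and Jup was called only without either SKO array with cluster C. No group held enough arrays for a test of single outlying arrays.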

How the results depend on the processing

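The counts of desmosome genes higher with SKO were 4 to 5 at day 4 and 5 to 8 at day 8 over the other settings, and 5 to 5 and 5 to 8 when 1 array was left out. The low counts of 4 and 5 came with the minimum change of 1.5-fold, and 5 at day 8 also without the SKO or the no SKO array of day 8 with cluster C. The 4 genes called between the days with SKO became 2 with each arm fitted alone, 3 with the additive fit and with equal array medians, 6 without dim genes (adding Pkp2 and Ppl) and 0 with the minimum of 1.5-fold, and 0 to 4 with 1 array left out. The 1 gene called without SKO became 0 with each arm alone, with the additive fit, with every probe set and with the minimum of 1.5-fold, 2 with a mean-variance trend, and 0 to 1 with 1 array left out. The 2 genes whose day change differed became 5 with the trend, 4 without dim genes (12418 genes left), 1 with every probe set, 0 with the minimum of 1.5-fold, and 0 to 1 with 1 array left out. The cause of these shifts was not tested. Counts for the clusters were 0 under every setting run.

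In all, 23 values changed sign, and 0 of them had been called. The additive fit, which pools both arms for a cluster, gave cluster C values of -0.07 for Dsg2, -0.03 for Jup and -0.02 for Ppl with SKO. With 1 array left out, day 4 values with SKO ran from -0.39 to 0.17 for Dsg2, -0.20 to 0.10 for Pkp3, -0.16 to 0.20 for Ppl and -0.09 to 0.18 for Evpl. The day change of Dsc2 with SKO ran from -0.01 to 0.30. Cluster C values with SKO ran from -0.17 to 0.33 for Dsc2, -0.27 to 0.67 for Dsg2, -0.11 to 0.05 for Pkp1, -0.25 to 0.17 for Pkp3, -0.13 to 0.20 for Jup and -0.20 to 0.35 for Ppl.

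With equal array medians, 34.8% of the genes called between the days without SKO were higher, against 46.6% as reported. Leaving out an SKO array with cluster C could not be fitted in the day-specific fit. The labels number no replicates, so there is no replicate number to block on. The fit already holds terms for the virus in each arm, so day changes are taken between arrays of the same virus.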
